A study of Homo sapiens with 18 samples.

Results

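The genes described here encode the enzymes that write and erase methyl and acetyl groups on histones, chosen as every gene whose symbol begins with KMT, KDM, KAT, HDAC or SIRT followed by a digit. The rule found 51 genes, each with 1 probe set, among 21448 probe sets tested. Of these, 15 are writers (8 KMT lysine methyltransferases and 7 KAT lysine acetyltransferases) and 36 are erasers (18 KDM lysine demethylases, 11 HDAC deacetylases and 7 SIRT sirtuins). The rule goes by symbol and did not use the measurements, but it was chosen with earlier results of these data known. It fits 54 protein-coding symbols of RefSeq, and KAT14, KDM1A and KDM4F are not analysed here. KDM5D, a Y-linked eraser, is counted in all totals and its levels are not given.

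Messenger RNA was measured with Clariom S arrays in SKOV-3, an established human ovarian carcinoma cell line, in 6 groups of 3 arrays. Cells were transiently transfected with PEA-15AA, a form of the phosphoprotein PEA-15 that cannot be phosphorylated (AA), with PEA-15DD, a form that mimics phosphorylation (DD), or with the empty vector (EV). Each transfection was exposed to 15 µM cisplatin, a platinum drug that crosslinks DNA, for 24 h, or kept in medium alone for the same time. All groups are a single cell line and all went through transfection, so no untransfected cells enter any comparison, and the share of cells that took up the plasmid was not measured by the arrays. The sources do not say whether replicates came from separate cultures, so p-values measure only the spread between these arrays, which may be technical. Values are log2 signals, where a difference of 1 is a 2-fold change.

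Histone tails carry chemical marks that differ between active and silent genes. Acetylation of lysines, set by acetyltransferases and removed by deacetylases, is found at open and transcribed chromatin. Methylation depends on the residue: methylated H3K4 (lysine 4 of histone H3) marks promoters and enhancers, H3K36 transcribed gene bodies, and H3K9, H3K27 and H4K20 are mostly found in silent chromatin. Many of these enzymes exist as pairs or families of paralogues with the same mark as substrate, and chromatin around platinum-damaged DNA is opened and closed again during repair.

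The arrays carried epithelial markers of the line, though not all at a high level. KRT8, KRT18, KRT19 and EPCAM were at 11.61 or more on all 18 arrays, and ERBB2 is not analysed here. Markers of the line also moved with cisplatin: PAX8 read 7.49 to 8.76 in treated and 11.07 to 11.89 in untreated cells (-3.45, SE 0.15), KRT19 read 11.61 to 12.06 in treated and 13.29 to 13.60 in untreated cells (-1.60, SE 0.07), and MUC16 read 5.25 to 6.33 in treated and 3.80 to 4.50 in untreated cells (1.58, SE 0.12). KRT7 read 9.49 to 10.10 in treated and 8.51 to 9.40 in untreated cells (0.96, SE 0.12). On every untreated array MUC16 lay under the 90th percentile of the negative control probe sets, so its untreated level is background. The part of these shifts in the results was not tested. Of 7 measured markers of other cell types, CD3E, HBB, ALB and PECAM1 stayed at 5.59 or less, but CD68 read 11.99 to 12.49 in treated and 11.44 to 11.70 in untreated cells, and PTPRC read 9.52 to 10.10 in treated and 11.71 to 12.34 in untreated cells. VWF lay between 5.36 and 6.80. The summed signal of these 7 markers on the log2 scale ran from 12.30 to 12.72 in treated and from 12.61 to 13.07 in untreated cells, and its part in the results was not tested. The PEA15 probe set read 9.99 to 10.42 in AA, 10.53 to 11.63 in DD and 10.95 to 11.51 in EV cells under cisplatin, and 9.80 to 10.01 in AA, 9.59 to 12.21 in DD and 10.06 to 10.39 in EV cells without it. AA cells thus lay below EV cells in both conditions with no overlap, against the direction their label implies, and DD cells overlapped EV cells. Whether these probes read the plasmid transcript was not tested, and the transfections are named by their labels alone. The median of all probe sets was 6.33 to 6.44 in treated and 6.53 to 6.61 in untreated arrays. Replicates 2 and 3 in treated DD cells deviated most from the mean of their group (root mean square 0.305 and 0.311, against 0.144 to 0.251 on the other arrays).

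After cisplatin most of these enzymes were lower. Over all transfections (9 treated against 9 untreated arrays), 34 of 51 fell and 10 rose at an adjusted p under 0.05 by limma with Benjamini-Hochberg adjustment, while 28.7% of all probe sets were called lower and 36.5% higher. At a change of 2-fold or more, 20 of 51 (39.2%) fell against a background of 12.2%, and 3 rose (5.9%, background 6.4%), together 23 genes with 18.6% of all probe sets past that limit. The median change was -0.45 over the enzymes, while it was 0.10 over all probe sets. In 23 genes every treated array was below every untreated array (background 18%), and in 5 every treated array was above (background 13.3%). When each array was centred on its own median the split was 28 fallers and 14 risers, and with quantile normalization 31 and 14. Of the called enzyme genes 22.7% were higher as deposited, 33.3% after centring and 31.1% after quantile normalization. Over all called probe sets these shares were 55.9%, 70.6% and 53.7%. Centring moved the median of all probe sets to 0.30. Bulk RNA does not tell fewer expressing cells from less RNA per cell, and each change is relative to the other RNAs on the array.

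At an adjusted p under 0.05 the same share of writers and of erasers fell, but not at 2-fold or more. Among writers 10 of 15 fell (66.7%) and 4 rose, with a median change of -0.78. Among erasers 24 of 36 fell (66.7%) and 6 rose, with a median of -0.42. At 2-fold or more 7 writers (46.7%) and 13 erasers (36.1%) fell, with a background of 12.2%. At that limit 2 writers (13.3%) and 1 eraser (2.8%) rose, with a background of 6.4%. The SD of the writers' median over the arrays of a group was 0.295 and that of the erasers' median 0.139. Neither the difference between both medians nor that between the shares of writers and erasers was tested. In each transfection the writers' median was the lower one, at -0.73 in AA cells, -0.60 in DD cells and -1.0 in EV cells, with -0.41, -0.49 and -0.41 for the erasers. By family the medians were -0.61 for KMT, -1.04 for KAT, -1.02 for KDM and -0.41 for HDAC, and the sirtuins stood at 0.18.

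**Figure D1:**
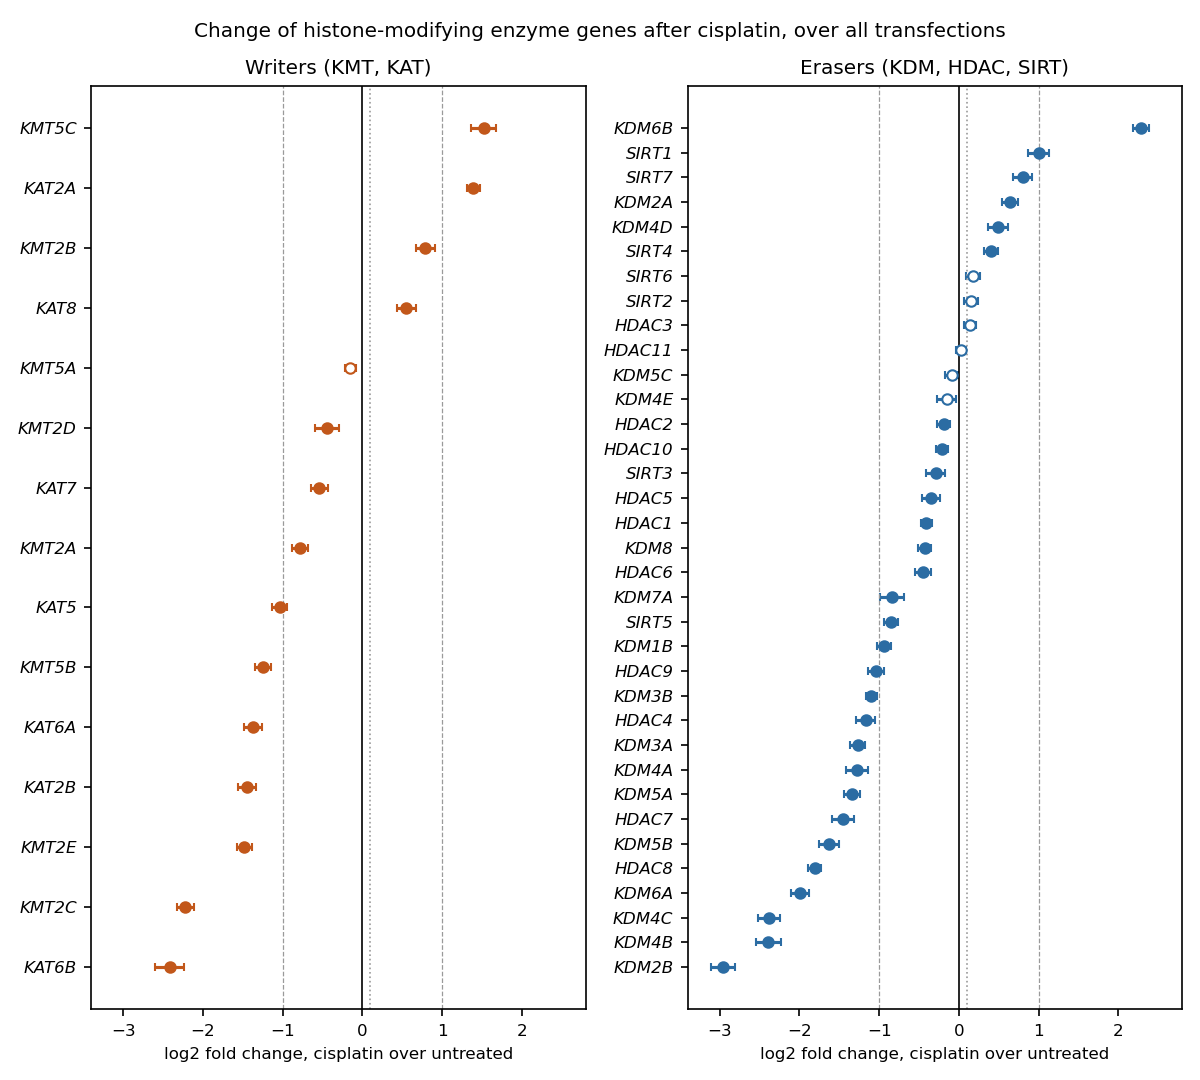
Change of 50 enzyme genes after cisplatin over all transfections (horizontal axis, log2 fold change, treated over untreated; bars are the SE), writers in the left panel and erasers in the right one, sorted by change. Filled points passed an adjusted p under 0.05, dashed lines mark a 2-fold change and the dotted line the median of all probe sets, and most points in both panels lie left of 0 with KDM6B alone beyond 2 on the right.

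Among the methyltransferases of H3K4, the large KMT2 proteins of the MLL family, 4 of 5 fell (background 28.7%) and 1 rose (background 36.5%). KMT2C, which monomethylates H3K4 at enhancers, read 6.42 to 7.49 (median 6.62) in treated cells, against 8.66 to 9.15 (median 8.98) in untreated cells, a log2 change of -2.22 (SE 0.11, limma adjusted p = 4.5e-12). KMT2E, an MLL-like protein with little known methyltransferase activity of its own, read 8.83 to 9.66 (median 9.14) after cisplatin, against 10.51 to 10.84 (median 10.62) without it, a change of -1.48 (SE 0.09, adjusted p = 1.3e-10). Neither gene's treated and untreated arrays overlapped. KMT2A, the MLL protein broken in mixed-lineage leukaemias, fell by less than 2-fold (-0.78, SE 0.10). KMT2D, a paralogue of KMT2C, fell by 0.45 (SE 0.15, adjusted p = 0.011). Its call was lost after centring (-0.25, adjusted p = 0.108) and after quantile normalization (-0.21, adjusted p = 0.21). KMT2B, the closest paralogue of KMT2A, rose: it read 6.36 to 7.21 in treated cells, against 5.48 to 6.49 in untreated cells. The change was 0.79 (SE 0.12, adjusted p = 1.9e-05) with an overlap between the groups. On 1 treated and 1 untreated array KMT2B lay under the 90th percentile of the negative controls.

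Of the 3 enzymes of H4K20, KMT5C rose, KMT5B fell and KMT5A did not pass the test. KMT5C, which adds the last methyl groups to H4K20 in heterochromatin, read 8.31, 8.31 and 8.13 in treated AA cells, 8.69, 8.20 and 7.72 in treated DD cells and 7.85, 7.79 and 8.38 in treated EV cells, against 5.88 to 7.16 over the untreated arrays. KMT5B, its paralogue with the same reaction, read 10.10 to 10.95 (median 10.60) in treated cells, against 11.71 to 11.92 (median 11.82) in untreated cells. Every treated array lay above the untreated ones for KMT5C and below them for KMT5B. For KMT5C, 1 untreated array lay under the 90th percentile of the negative controls. The changes were 1.52 (SE 0.16, adjusted p = 1.1e-07) for KMT5C and -1.25 (SE 0.10, adjusted p = 2e-09) for KMT5B. KMT5A, which sets the first methyl group and is needed for S phase, changed by -0.15 and did not pass (adjusted p = 0.062), though it did with array weights (adjusted p = 0.024), with trend and robust moderation (0.0358), with dim probe sets left out (0.046 and 0.0296), and without replicate 3 of treated DD cells or replicate 1 of untreated DD cells (0.0496 and 0.0408).

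Of the acetyltransferases, 5 of 7 fell (71.4%, background 28.7%) and 2 rose (28.6%, background 36.5%). KAT6B, the MORF enzyme of H3 acetylation, read 5.24 to 6.80 (median 5.67) in treated cells, against 8.15 to 8.43 (median 8.19) in untreated cells, a change of -2.42 (SE 0.18, adjusted p = 8.2e-10). On 6 of 9 treated arrays it was under the 90th percentile of the negative control probe sets, so the size of its fall is uncertain. KAT6A, its MOZ paralogue, read 8.92 to 10.22 (median 9.42) after cisplatin, against 10.73 to 11.01 (median 10.87) without it (-1.37, SE 0.11, adjusted p = 3.1e-09). KAT5, the TIP60 enzyme that acetylates H4 and the ATM kinase in the DNA damage response, read 7.68 to 8.30 (median 8.13) with the drug, against 8.85 to 9.22 (median 9.10) in medium (-1.04, SE 0.09, adjusted p = 7e-09). All 3 had separate groups. KAT7, the HBO1 enzyme of replication origins, fell by 0.54 (SE 0.11), and KAT8, the MOF enzyme of H4K16, rose by 0.55 (SE 0.12), both with overlapping groups.

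KAT2A and KAT2B, the GCN5 and PCAF paralogues that acetylate H3 in the SAGA and ATAC complexes, moved apart. KAT2A read 10.62, 10.66 and 10.69 in treated AA cells, 10.75, 10.71 and 10.86 in treated DD cells and 10.64, 10.84 and 10.76 in treated EV cells, against 8.96 to 9.51 in untreated cells. KAT2B read 6.59 to 7.44 (median 6.93) in treated cells, against 8.06 to 8.68 (median 8.46) in untreated cells. All 9 treated arrays were above the untreated ones for KAT2A and below them for KAT2B. The changes were 1.39 (SE 0.08, adjusted p = 1.5e-11) and -1.45 (SE 0.11, adjusted p = 1.6e-09).

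Among the erasers of histone methylation, 13 of 18 demethylases fell (72.2%, background 28.7%) and 3 rose (16.7%, background 36.5%). KDM6B, the JMJD3 demethylase of H3K27, had the largest rise of all 51 genes. It read 10.69, 11.50 and 11.48 in treated AA cells, 11.00, 11.33 and 11.22 in treated DD cells and 11.33, 11.26 and 11.45 in treated EV cells. In untreated cells it read 8.92, 8.88 and 9.07 in AA cells, 8.65, 8.70 and 8.50 in DD cells and 9.32, 9.24 and 9.39 in EV cells. The lowest treated array was thus above the highest untreated one, and the change was 2.29 (SE 0.10, 4.89-fold, adjusted p = 7.9e-13). KDM6A, the UTX demethylase of the same mark, read 5.94 to 6.73 (median 6.33) after cisplatin, against 7.97 to 8.45 (median 8.30) without it, a fall with no overlap (-1.99, SE 0.11, adjusted p = 1.8e-11), although 3 treated arrays lay under the 90th percentile of the negative controls.

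The KDM2 pair, demethylases of H3K36 that bind CpG islands, also moved apart. KDM2B, which brings a polycomb complex to CpG islands, read 6.33 to 7.84 (median 6.71) in treated cells, against 9.47 to 10.00 (median 9.90) in untreated cells, a change of -2.96 (SE 0.15, 7.8-fold, adjusted p = 4.4e-12), with 1 treated array under the 90th percentile of the negative controls. KDM2A read 11.03 to 12.00 (median 11.63) in treated cells, against 10.75 to 11.19 (median 10.97) in untreated cells. The lowest treated array of KDM2A was replicate 2 of DD cells, which overlapped the untreated range, and the change was 0.64 (SE 0.10, adjusted p = 2.5e-05).

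**Figure D2:**
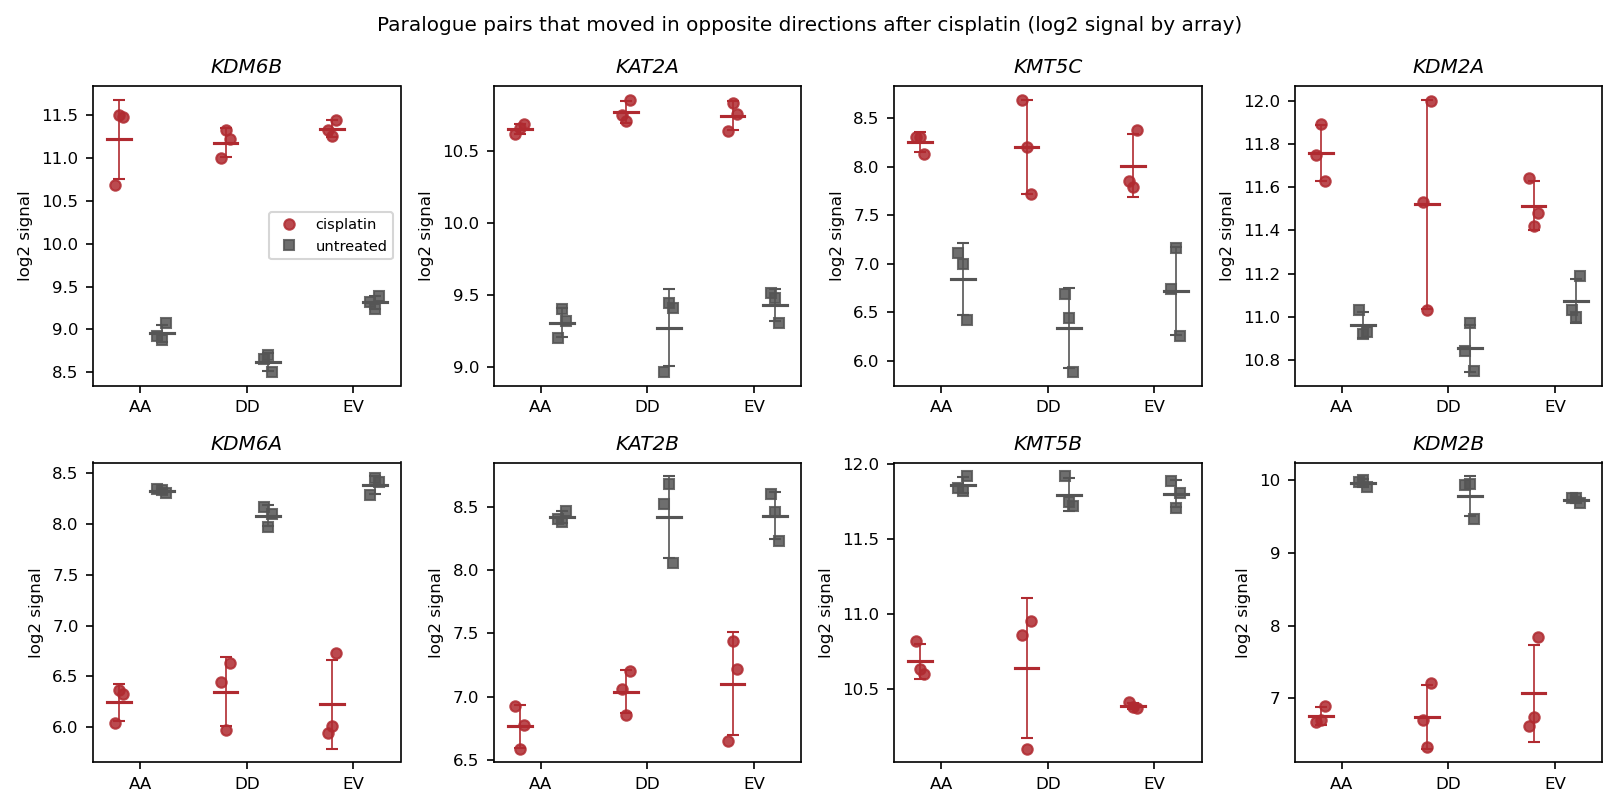
Log2 signal by array for 4 paralogue pairs, the riser above and the faller below, in AA, DD and EV cells (horizontal axis), with treated arrays as red circles left of untreated arrays as grey squares; horizontal lines are group means, bars the SD of 3 arrays, and the vertical axes differ between panels. Treated arrays sit above the untreated ones in the upper row and below them in the lower row in each transfection, as for KDM6B (10.69 to 11.50 treated, 8.50 to 9.39 untreated) and KDM6A (5.94 to 6.73 treated, 7.97 to 8.45 untreated), except that 1 treated DD array of KDM2A overlaps the EV range.

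Of the demethylases of H3K9, KDM3A, KDM3B, KDM4A, KDM4B and KDM4C fell. KDM3A, an H3K9 demethylase induced by hypoxia, read 8.08 to 8.75 (median 8.45) in treated cells, against 9.56 to 9.86 (median 9.77) in untreated cells (-1.27, SE 0.09, adjusted p = 3e-10). KDM3B, its paralogue, read 9.92 to 10.31 (median 10.13) after cisplatin, against 11.12 to 11.43 (median 11.22) without it (-1.10, SE 0.07, adjusted p = 2.3e-10). KDM4A, which acts on trimethylated H3K9 and H3K36, read 6.82 to 8.16 (median 7.36) with the drug, against 8.43 to 9.07 (median 8.67) in medium (-1.28, SE 0.14, adjusted p = 2.4e-07). These 3 had no array in common between the groups. KDM4B, with the same substrates, read 3.96 to 5.11 in treated cells, against 6.43 to 7.50 in untreated cells. KDM4C, the third enzyme of this kind, read 4.26 to 5.44 after cisplatin, against 6.73 to 7.60 without it. The changes of KDM4B and KDM4C were -2.39 (SE 0.16, adjusted p = 3.7e-10) and -2.38 (SE 0.14, adjusted p = 3.9e-11), but all 9 treated arrays of both lay under the 90th percentile of the negative controls, so only the direction is well measured. KDM4D and KDM4E, which act on H3K9 alone, were under that level on all 18 arrays, KDM4D with a change of 0.49 (SE 0.13, adjusted p = 0.0037) and KDM4E with -0.15 (adjusted p = 0.30; 0.0252 after quantile normalization).

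None of the H3K4 demethylases was called higher, and KDM5B, KDM5A and KDM1B fell. KDM5B, which removes methyl groups from H3K4 and is abundant in several carcinomas, read 8.96 to 10.17 (median 9.62) in treated cells, against 10.98 to 11.41 (median 11.23) in untreated cells, a change of -1.63 (SE 0.13, adjusted p = 3.4e-09). KDM5A, its paralogue that binds the retinoblastoma protein, read 7.13 to 7.95 (median 7.75) after cisplatin, against 8.75 to 9.20 (median 9.02) without it (-1.34, SE 0.10, adjusted p = 1.6e-09). Both were separated on every array, whereas KDM5C, the X-linked member, read 11.26 to 11.74 in treated and 11.56 to 11.78 in untreated cells and did not pass the test (-0.09, adjusted p = 0.31). KDM1B, a flavin-dependent demethylase of H3K4, fell by 0.94 (SE 0.09). KDM7A, which acts on H3K9 and H3K27, fell by 0.84 (SE 0.15) and KDM8, a JmjC-domain oxygenase, by 0.43 (SE 0.08), with 8 and 9 treated arrays under the negative controls' 90th percentile.

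Of the 11 zinc-dependent deacetylases 9 fell (81.8%, background 28.7%) and 0 rose (background 36.5%). However, HDAC3 and HDAC11 were called higher after centring or quantile normalization. HDAC2, HDAC5, HDAC6 and HDAC10 each lost their call under at least 1 of these scalings. The class IIa enzymes, which shuttle between nucleus and cytoplasm and act with MEF2 factors, fell in 4 of 4 cases with a median of -1.11. HDAC7 read 8.10 to 9.36 (median 9.07) in treated cells, against 9.98 to 10.63 (median 10.34) in untreated cells (-1.45, SE 0.14, adjusted p = 3.3e-08). HDAC4 read 6.16 to 7.18 (median 6.74) after cisplatin, against 7.64 to 8.20 (median 7.84) without it (-1.17, SE 0.12, adjusted p = 6.6e-08). HDAC9 read 6.88 to 8.02 (median 7.76) with the drug, against 8.38 to 8.98 (median 8.70) in medium (-1.04, SE 0.10, adjusted p = 4.9e-08). Treated and untreated arrays did not overlap in these 3, whereas HDAC5, the remaining class IIa member, overlapped, fell by 0.35 (SE 0.11, adjusted p = 0.0098) and lost its call after centring (adjusted p = 0.198) and quantile normalization (0.715).

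Among the class I deacetylases, HDAC8 fell by more than 2-fold, HDAC1 and HDAC2 by less, and HDAC3 did not pass. HDAC1 read 12.44 to 12.76 in treated cells, against 12.73 to 13.16 in untreated cells, and fell by 0.41 (SE 0.07, adjusted p = 4.1e-05). HDAC2, its partner in the same complexes, read 13.04 to 13.52 in treated cells, against 13.31 to 13.59 in untreated cells, a change of -0.19 (SE 0.08, adjusted p = 0.043). That call was lost in 12 of 18 fits that left out 1 array (adjusted p 0.0534 to 0.0903), with the replicate number as a block (0.0506) and without replicates 2 and 3 of treated DD cells together (0.096), and the change was 0.01 after centring. HDAC3, the catalytic subunit of the NCoR and SMRT complexes, did not pass (0.14, adjusted p = 0.11), but did with centring (0.34), with quantile normalization (0.21), with array weights (0.15), without replicate 3 of treated DD cells (adjusted p = 0.0151) and without replicates 2 and 3 of that group (0.0352). HDAC8, the X-linked class I enzyme that deacetylates cohesin, stood apart from them: it read 7.06 to 7.75 (median 7.37) after cisplatin, against 9.04 to 9.48 (median 9.20) without it (-1.81, SE 0.08, adjusted p = 7.2e-13). Of the others, HDAC6, the tubulin deacetylase, fell by 0.45 (SE 0.10; adjusted p = 0.0686 after quantile normalization), HDAC11 changed by 0.03 (adjusted p = 0.64; higher after centring and quantile normalization, 0.23 and 0.33), and HDAC10, a polyamine deacetylase, was at background on all 18 arrays (-0.21, adjusted p = 0.036, lost in 8 of 18 fits without 1 array at 0.0501 to 0.0861, after centring and with trend and robust moderation).

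Of the 7 NAD-dependent sirtuins 3 rose (42.9%) and 2 fell (28.6%), near the 36.5% and 28.7% of all probe sets. SIRT2 and SIRT6 joined the risers after centring or quantile normalization, where SIRT3 lost its call. Among all called probe sets 55.9% were higher as deposited, 70.6% after centring and 53.7% after quantile normalization. SIRT1, the nuclear sirtuin that deacetylates histones and p53, read 11.57, 11.39 and 11.35 in treated AA cells, 11.47, 10.51 and 11.78 in treated DD cells and 10.94, 11.10 and 11.13 in treated EV cells, against 10.05 to 10.48 in untreated cells. Replicate 2 of treated DD cells lay just above the untreated range and the groups did not overlap. The change was 1.00 (SE 0.13, adjusted p = 1.9e-06), just under the limit of 2-fold. SIRT7, the nucleolar sirtuin that acts on H3K18, read 9.95 to 10.53 in treated cells, against 8.67 to 9.85 in untreated cells (0.80, SE 0.12, adjusted p = 7.3e-06). SIRT4, a mitochondrial sirtuin, was called higher (0.40, SE 0.09) but lay at background on all 18 arrays. SIRT5, the mitochondrial desuccinylase, read 8.20 to 8.65 after cisplatin, against 9.01 to 9.55 without it, and fell by 0.85 (SE 0.09, adjusted p = 1.1e-07). SIRT3, the main mitochondrial deacetylase, fell by 0.29 (SE 0.12, adjusted p = 0.036), a call lost in 11 of 18 fits without 1 array (adjusted p 0.0516 to 0.0836) and after centring and quantile normalization. SIRT2, a tubulin deacetylase, and SIRT6, a chromatin sirtuin of H3K9, did not pass (0.15 and 0.18); both were called higher after centring (0.35 and 0.38) and quantile normalization (0.34 and 0.47), SIRT6 also with array weights (adjusted p = 0.0422), and each without 1 array, replicate 3 of treated DD cells for SIRT2 (adjusted p = 0.028) and replicate 1 of untreated DD cells for SIRT6 (0.0245).

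The DNA just upstream of the 3 genes that rose by 2-fold or more is shown with that of the paralogue that fell, since these pairs share a reaction and moved in opposite directions. The pairs were picked after their values were seen. Each sequence is the 250 bases before the RefSeq start (GRCh38.p14), written 5′ to 3′ on the gene's strand, with matches to the motifs searched in capitals.
KDM6B (chr17:7833967-7834216, plus strand): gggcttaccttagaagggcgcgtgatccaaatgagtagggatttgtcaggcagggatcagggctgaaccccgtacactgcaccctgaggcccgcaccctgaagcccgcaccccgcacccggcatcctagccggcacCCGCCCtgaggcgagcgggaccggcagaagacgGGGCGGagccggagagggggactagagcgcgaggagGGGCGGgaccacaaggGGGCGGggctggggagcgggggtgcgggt
KDM6A (chrX:44872938-44873187, plus strand): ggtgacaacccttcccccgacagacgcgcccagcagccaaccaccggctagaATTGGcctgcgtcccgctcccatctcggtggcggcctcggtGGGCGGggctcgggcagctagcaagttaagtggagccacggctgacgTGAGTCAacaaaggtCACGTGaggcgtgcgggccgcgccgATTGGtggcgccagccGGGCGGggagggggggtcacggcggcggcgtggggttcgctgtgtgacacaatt
KAT2A (chr17:42121368-42121617, minus strand): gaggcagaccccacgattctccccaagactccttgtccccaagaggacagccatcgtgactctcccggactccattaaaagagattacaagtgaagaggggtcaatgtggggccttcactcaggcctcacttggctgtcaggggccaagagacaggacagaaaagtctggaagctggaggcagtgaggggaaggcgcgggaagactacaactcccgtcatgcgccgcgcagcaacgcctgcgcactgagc
KAT2B (chr3:20040196-20040445, plus strand): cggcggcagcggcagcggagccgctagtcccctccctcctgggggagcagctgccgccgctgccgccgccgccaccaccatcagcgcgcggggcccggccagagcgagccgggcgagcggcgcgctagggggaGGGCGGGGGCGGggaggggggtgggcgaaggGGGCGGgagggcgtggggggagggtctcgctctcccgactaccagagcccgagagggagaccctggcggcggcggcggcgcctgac
KMT5C (chr19:55339626-55339875, plus strand): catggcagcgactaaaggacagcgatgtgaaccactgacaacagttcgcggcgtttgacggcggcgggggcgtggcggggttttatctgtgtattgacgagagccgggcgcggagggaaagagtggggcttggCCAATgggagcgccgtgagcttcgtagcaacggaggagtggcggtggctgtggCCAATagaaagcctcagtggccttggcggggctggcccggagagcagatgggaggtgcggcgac
KMT5B (chr11:68213649-68213898, minus strand): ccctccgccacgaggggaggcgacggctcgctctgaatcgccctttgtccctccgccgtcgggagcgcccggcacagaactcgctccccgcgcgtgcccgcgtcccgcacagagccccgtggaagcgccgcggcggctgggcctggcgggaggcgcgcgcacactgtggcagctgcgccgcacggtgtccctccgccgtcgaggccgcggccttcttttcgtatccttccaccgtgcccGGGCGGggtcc
The motifs searched on both strands were the GC box GGGCGG, the CCAAT box, the cyclic AMP response element TGACGTCA, the AP-1 site TGANTCA, the E-box CACGTG and the TATA box TATAAA. The GC box stood 4 times before KDM6B, 2 times before KDM6A, 3 times before KAT2B, 1 time before KMT5B and 0 times before KAT2A and KMT5C. KDM6A and KMT5C each held 2 CCAAT boxes, and KDM6A also held 1 AP-1 match and 1 E-box. No motif separated the risers from the fallers of these pairs. Windows could be placed for 38 of the 51 genes, and 71.1% of them held a GC box, while 42.6% of 35116 RefSeq windows of the same length did. The 38 are 1 window per gene at its outermost start, while the 35116 include further starts of the same gene. These shares, and the GC contents below, thus compare sets that differ in kind. An E-box stood in 13.2% of the 38 and in 6.3% of all windows, and a CCAAT box in 28.9% and 32.0%. The AP-1 match stood in 2.6% and 6.6%, the response element in 0 of 38 and 1.6%, and the TATA box in 0 of 38 and 10.7%. Of the risers with a window 4 of 7 held a GC box, and of the fallers 19 of 25. The median GC content was 69.0% before these enzyme genes and 58.0% over all windows.

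The enzyme genes that cover more of the genome had the lower changes. Across the 51 genes the change had a Spearman correlation of -0.76 with the genomic span of the gene in RefSeq, and it was -0.84 across the 15 writers and -0.72 across the 36 erasers. Across 17687 genes on the arrays it was -0.45. These are correlations over genes read on the same 18 arrays, so the points are not independent. The share of all genes called in each span class was not counted, so only their medians stand beside the counts. In all 4 genes over 300 kb (KMT2C, KDM4C, HDAC4 and HDAC9) the signal fell, with a median of -1.69, beside -0.26 over all genes of that span. Between 100 and 300 kb 9 of 10 fell (median -1.64, all genes -0.86), and between 30 and 100 kb 16 of 18 fell (median -0.81, all genes -0.12). Among genes of 10 to 30 kb 5 rose and 3 fell of 12 (median 0.14, all genes 0.21), and under 10 kb 3 rose and 2 fell of 7 (median 0.18, all genes 0.26).

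In the pairs named next, which moved in opposite directions, the riser has the shorter span. KDM6B spans 20.58 kb and KDM6A 239.6 kb, KAT2A 8.257 kb and KAT2B 114.0 kb, and KMT5C 8.246 kb and KMT5B 58.79 kb. KMT2B, the riser of its family, spans 20.88 kb, and the falling KMT2C and KMT2E span 301.1 and 100.8 kb. KDM2A rose over a long span of 138.8 kb, while the falling KDM2B spans 173.8 kb. Among paralogues that both fell the order can be the other way: KDM3A (55.67 kb) changed by -1.27 and KDM3B (84.34 kb) by -1.10, and KDM5B (83.93 kb) by -1.63 and KDM5A (109.3 kb) by -1.34. In the other direction KAT5 fell with a span of 7.587 kb. The sirtuins have a median span of 21.47 kb, the HDAC genes 38.62 kb and the KDM genes 76.18 kb. Whether span plays a part in these changes was not tested.

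**Figure D3:**
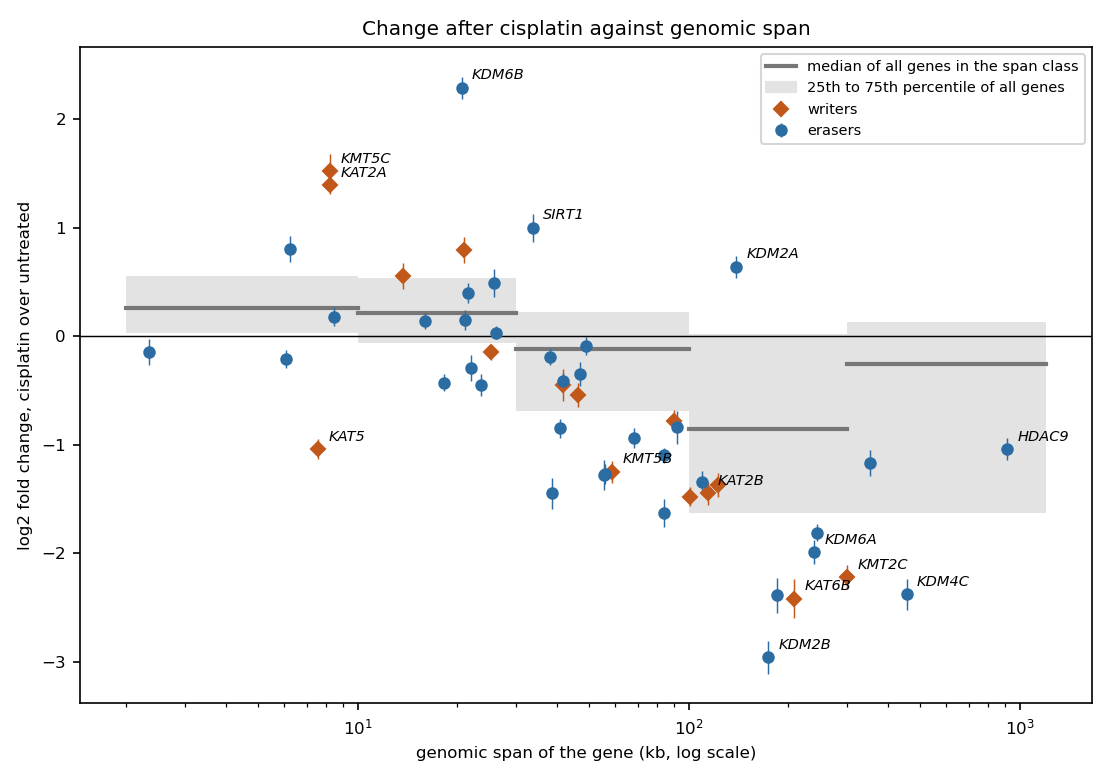
Change after cisplatin (vertical axis, log2 fold change over all transfections, bars SE) against genomic span in kb (horizontal axis, log scale) for 15 writers (diamonds) and 35 erasers (circles); grey lines and bands are the median and the 25th to 75th percentile of all genes in 5 span classes, the outer classes cut to the plotted range. Genes over 100 kb lie below 0 apart from KDM2A at 0.64, and the highest points, KDM6B, KMT5C and KAT2A, span 20.58 kb or less.

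Related enzymes outside the naming rule were read from lists of their own. Beside their counts, 28.7% of all probe sets were called lower and 36.5% higher. Of 21 other histone methyltransferases 12 fell and 5 rose (median -0.76). NSD1, an H3K36 methyltransferase, read 6.96 to 8.40 in treated cells, against 10.21 to 10.79 in untreated cells (-2.88, SE 0.16), and EHMT1, an H3K9 methyltransferase, read 7.26 to 8.74 in treated cells, against 10.25 to 11.19 in untreated cells (-2.62, SE 0.16). SMYD3 (-1.95), SETD2 (-1.46), PRMT6 (-1.28), SETDB1 (-1.26) and NSD3 (-1.06) also fell by 2-fold or more. SUV39H2, an H3K9 enzyme of heterochromatin, was the only one of them to rise by 2-fold, at 10.73 to 11.19 in treated and 9.42 to 9.84 in untreated cells (1.35, SE 0.08). The H3K27 methyltransferases EZH2 and EZH1 fell by 0.76 (SE 0.13) and 0.62 (SE 0.09). Of other acetyltransferases 3 of 3 fell, NCOA1 (-2.85, SE 0.17), the CBP coactivator CREBBP (-2.18, SE 0.13) and HAT1 (-0.86, SE 0.08). Of 4 other demethylases PHF8 (-1.86), PHF2 (-1.79) and JMJD1C (-1.25) fell and RIOX1 rose by 0.28 (SE 0.09). These genes were not refitted under the other scalings.

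The falls and rises were shared by the transfections. Within AA cells 26 of 51 fell and 8 rose (23% and 22.3% of all probe sets), within DD cells 28 fell and 9 rose (22.7% and 20.1%), and within EV cells 28 fell and 7 rose (24.3% and 26.2%). At 2-fold or more 20 fell in each transfection, with backgrounds of 12.3%, 11.7% and 13.1% in the order AA, DD and EV, and 5, 5 and 3 rose, with backgrounds of 7.04%, 6.72% and 7.04%. In all 3 transfections 25 genes were called lower and 7 higher, these 7 being KDM6B, KMT5C, KAT2A, SIRT1, SIRT7, KMT2B and KDM2A. Another 7 genes were called in 1 or 2 transfections, 12 in none, and 0 in opposite directions. How many of all probe sets were called the same way in all 3 transfections was not counted. Such agreement is thus not shown to be particular to these genes. KDM6B changed by 2.26 (SE 0.17) in AA cells, 2.57 (SE 0.17) in DD cells and 2.04 (SE 0.17) in EV cells. KDM2B changed by -3.20, -3.03 and -2.66 in the same order (SE 0.26 each). HDAC9 changed by -0.64, -1.37 and -1.11 (SE 0.18 each) and KDM4A by -0.83, -1.35 and -1.64 (SE 0.24 each).

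No enzyme gene differed between the transfections at an adjusted p under 0.05. In the 6 comparisons of transfections and the 3 differences in cisplatin response, 0 of 51 genes were called by limma, as were 0% of all probe sets. At an unadjusted p under 0.05, untreated cells had 1 gene for AA cells against EV cells (3.09% of all probe sets), 1 for DD cells against EV cells (5.47%) and 0 for AA cells against DD cells (3.99%). Under cisplatin these were 4 (12.5%), 3 (7.79%) and 2 (6.98%). The response differed at that level for 2 genes between AA cells and EV cells (6.9%), 2 between DD cells and EV cells (7.59%) and 2 between AA cells and DD cells (4.7%). A miss of the threshold does not show that the transfections were alike, since the median SE of a difference between 2 groups was 0.178.

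The gene with the lowest p among untreated cells was KDM6B. Its 3 arrays of DD cells (8.50 to 8.70) lay below those of EV cells (9.24 to 9.39), with a difference of -0.70 (SE 0.17, limma unadjusted p = 0.00081, adjusted p = 0.73, range over 27 alternatives 0.20 to 1). The arrays of AA cells (8.88 to 9.07) stood between them, and under cisplatin the difference between DD cells and EV cells was -0.17 (SE 0.17). HDAC9 was first for AA cells against EV cells (-0.42, SE 0.18, adjusted p = 1) and SIRT7 for AA cells against DD cells (0.41, SE 0.20, adjusted p = 1).

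KDM4A was first under cisplatin. It read 7.97, 7.76 and 7.93 in treated AA cells, 7.36, 6.82 and 8.16 in treated DD cells and 7.10, 6.84 and 7.07 in treated EV cells. AA cells and EV cells did not overlap and DD cells spanned both. The difference between AA cells and EV cells was 0.89 (SE 0.24, limma unadjusted p = 0.0019, adjusted p = 0.17, range over 27 alternatives 0.019 to 0.41). It passed in 3 of these, with array weights (adjusted p = 0.0396), without replicate 2 of treated DD cells (0.0431) and without replicates 2 and 3 of that group (0.0188), all of which lower the pooled spread and leave the difference at 0.89. KDM4A was also first in the response of AA cells minus that of EV cells (0.80, SE 0.34, adjusted p = 0.69).

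HDAC9 and KDM4D were first in the comparisons with DD cells. HDAC9 read 7.76, 7.92 and 7.89 in treated AA cells, 7.69, 6.88 and 7.35 in treated DD cells and 7.54, 8.02 and 7.86 in treated EV cells. It differed by 0.55 (SE 0.18, adjusted p = 0.57) between AA cells and DD cells and by -0.50 (SE 0.18, adjusted p = 0.52) between DD cells and EV cells. Its response differed by 0.73 (SE 0.25, adjusted p = 0.99) between AA cells and DD cells. The response of KDM4D, which lay at background, was 0.93 higher in DD cells than in EV cells (SE 0.32, adjusted p = 0.54).

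**Figure D4:**
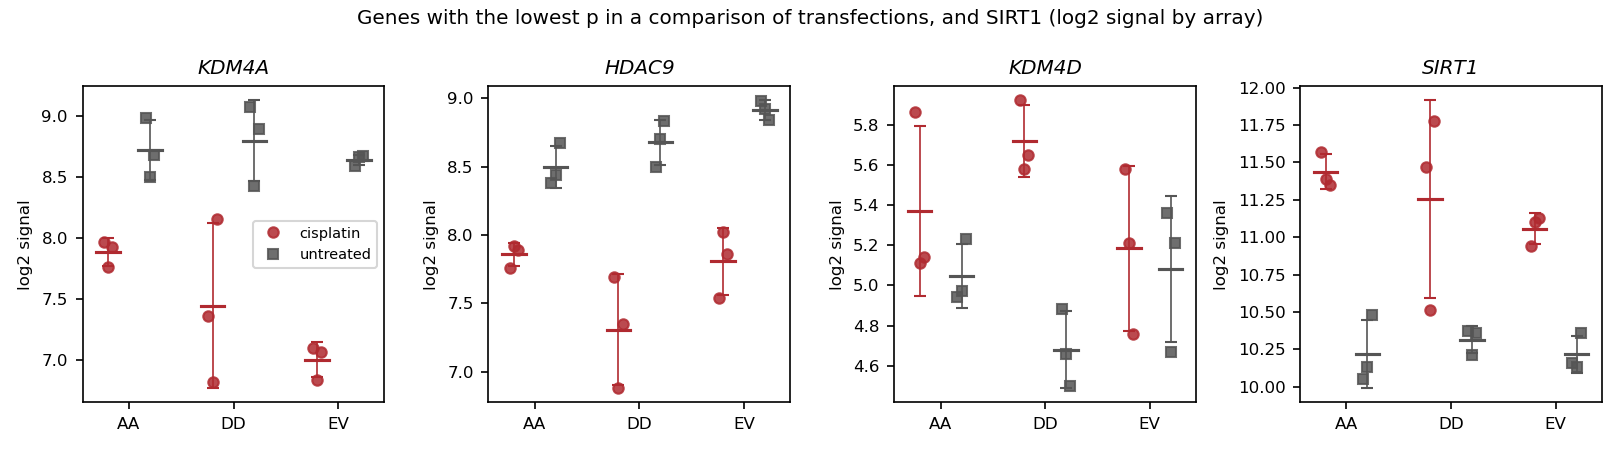
Log2 signal by array of KDM4A, HDAC9, KDM4D and SIRT1 in AA, DD and EV cells (horizontal axis), with treated arrays as red circles left of untreated arrays as grey squares; lines are group means, bars the SD of 3 arrays, and the vertical axes differ between panels. KDM4A under cisplatin sits at 7.76 to 7.97 in AA cells, 6.82 to 8.16 in DD cells and 6.84 to 7.10 in EV cells, and the wide DD spread recurs in SIRT1 (10.51 to 11.78).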

How the data were processed

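Clariom S arrays of SKOV-3 cells gave 18 samples in 6 groups of 3. The values are log2 signals per probe set as deposited, computed by the authors with the SST-RMA algorithm of Transcriptome Analysis Console 4.1, which also normalizes arrays to each other. No further scaling was applied. Detection calls and array scan batches were not used here. The titles of the 3 untreated EV arrays also contain the word cis, whereas their other labels give medium and a dose of 0, which was followed.

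Of 24351 features, 2903 controls were left out and 21448 probe sets were tested. Platform annotation gave 1 symbol to 17709 of them, none to 3739 and several to 0. Spans and promoters are from RefSeq (GRCh38.p14) by Entrez gene ID. limma 3.58.1 in R 4.3.3 fitted 1 mean per group (12 residual and 5.47 prior degrees of freedom) for 13 comparisons, with p-values adjusted over all probe sets. The fit was tested on simulated data. The number of arrays limits the precision. As a level of background, the 90th percentile of the 612 negative controls of each array was taken.

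The enzyme genes and the other lists were chosen with earlier results of these data known. Values of single arrays are given for the genes that rose by 2-fold or more, for SIRT1 and, between transfections, for KDM4A and HDAC9. Other genes past an adjusted p of 0.05 and 2-fold are given by their range over arrays. The remaining genes are given by change, range or count. Settings tried were centring, quantile normalization, filters on dim probe sets, trend and robust moderation, array weights, a replicate block, 1 probe set per symbol, only the groups compared, the unadjusted threshold with 2-fold, leaving out each array, and leaving out replicates 2 and 3 of treated DD cells, known from earlier results to stand apart.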

Additional observations from a re-analysis of the deposited data

How the results depend on the processing

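The counts over all transfections kept their direction in the settings tried. Leaving out 1 array gave 10 to 12 risers and 30 to 35 fallers, 22 to 24 genes past 2-fold, and medians of -0.84 to -0.727 for writers and -0.446 to -0.396 for erasers. Within a transfection it gave 8 to 9 risers and 25 to 27 fallers in AA cells, 7 to 10 and 25 to 28 in DD cells, and 5 to 8 and 25 to 30 in EV cells. Centring each array on its median moved the median of erasers to -0.219 and the risers in EV cells to 11, and HDAC2 changed sign (0.01, adjusted p = 0.898); the cause was not tested. An unadjusted p under 0.05 with a 2-fold change, a stricter size, left 3 risers and 20 fallers over all transfections, and 5, 5 and 3 risers in AA, DD and EV cells. In AA cells against EV cells under cisplatin the count was 1 (KDM4A) with array weights and without replicates 2 and 3 of treated DD cells, and 0 to 1 when 1 array was left out; in the other comparisons of transfections it stayed at 0. With the replicate number as a block there were 10 risers and 33 fallers, HDAC2 being lost. Samples with the same number deviated together weakly at most (correlation -0.0529 to 0.178, median 0.0214, 8 of 45 pairs over 0.1). Samples of other groups with different numbers had a median of -0.013. The numbers were not taken as pairs in the main fit, and a partial pairing is not excluded. Genes near the negative controls (KDM4B, KDM4C, KDM8, KDM4D, KDM4E, SIRT4 and HDAC10, and on most treated arrays KAT6B and KDM7A) have changes of uncertain size.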

Other observations

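The subunits that carry these enzymes were read from lists of their own over all transfections. In the same comparison 28.7% of all probe sets were called lower and 36.5% higher. Of 17 measured subunits of deacetylase complexes 10 fell and 3 rose (median -0.90). TBL1X (-2.89), TBL1XR1 (-2.76), SIN3A (-2.46), MTA3 (-2.38), RCOR1 (-2.03), CHD4 (-2.02) and MTA1 (-1.01) fell by 2-fold or more, whereas SAP18, a small subunit of the SIN3 complex, rose by 1.54 (SE 0.07), reading 14.68 to 15.09 in treated and 13.23 to 13.60 in untreated cells. Some of their paralogues were not called lower: MTA2 did not pass the test (0.13, limma adjusted p = 0.12), and CHD3 rose by 0.50 (SE 0.10).

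Of 21 subunits of acetyltransferase complexes 11 fell and 8 rose (median -0.37). The share that rose was near the 36.5% of all probe sets, and 28.7% of all probe sets were called lower. BRPF1 and BRPF3, scaffolds of the KAT6 and KAT7 enzymes, rose by 1.77 (SE 0.10) and 1.27 (SE 0.10), and MSL1, a partner of KAT8, by 1.06 (SE 0.09). KANSL1 (-2.18), JADE2 (-1.98), JADE3 (-1.94), TRRAP (-1.53), EPC2 (-1.28), JADE1 (-1.26), MSL2 (-1.11) and TADA2A (-1.02) fell. Of 8 COMPASS subunits, which act with the KMT2 enzymes, 4 rose and 2 fell (median 0.18), not far from the shares over all probe sets. NCOA6 at -2.05 (SE 0.09) was their only change past 2-fold. Of 6 polycomb subunits 5 fell and 1 rose, and JARID2 read 6.07 to 6.68 in treated cells, against 9.85 to 10.50 in untreated cells (-3.76, SE 0.10), with AEBP2 (-1.66) and PHF19 (-1.05) also past 2-fold. Among 4 readers of acetylated lysine BRD2 rose by 1.69 (SE 0.06), reading 14.39 to 14.65 in treated and 12.65 to 12.90 in untreated cells, BRD3 was called higher at 0.24 (SE 0.10) and BRD7 fell by 0.74 (SE 0.07). All adjusted p-values are from limma over all probe sets, and these lists were neither tested as sets nor refitted under the other scalings.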
